A study of Oryctolagus cuniculus with 16 samples.

Results

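The mitochondrial genes COX2, ATP8, ATP6, COX3, ND3, ND4L, ND4, ND5, ND6 and CYTB form a run of neighbours on the mitochondrial chromosome, and their RNA was measured in microglia and in oligodendrocyte progenitor cells (OPC) of rabbit kits with intraventricular haemorrhage. They were chosen by position: all genes on the chromosome named MT that are at least 200 bp long and start at position 7000 or later, which gave 10 of the 37 mitochondrial genes and of the 23669 genes in the files. The files give identifiers without names, and the names used here follow the gene order of the mammalian mitochondrial genome. As a check on that order, the gene called ND6 was the only 1 of the 10 on the minus strand. No gene symbol could be matched, so the cell types were not checked against marker genes.

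Mitochondria carry a small circular chromosome that encodes core subunits of the respiratory chain, which pumps protons across the inner membrane, and of the ATP synthase, which uses the resulting gradient to make ATP. Both strands are transcribed as long precursors, which are cut at the tRNAs that lie between most of the coding genes. The heavy-strand promoter yields nearly all of the mRNAs, and ND6 is the single mRNA from the light-strand promoter. ATP8 with ATP6, and ND4L with ND4, overlap and are each kept together as 1 mRNA with 2 reading frames.

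COX2 (7039 to 7722) and COX3 (8637 to 9420) encode catalytic-core subunits of cytochrome c oxidase, complex IV. ATP8 (7796 to 7999) and ATP6 (7957 to 8636) encode membrane subunits of the ATP synthase. ND3 (9491 to 9837), ND4L (9906 to 10202), ND4 (10196 to 11573), ND5 (11772 to 13583) and ND6 (13579 to 14103, minus strand) encode membrane-arm subunits of NADH dehydrogenase, complex I. CYTB (14175 to 15313) encodes cytochrome b of complex III. In these coordinates ATP8 and ATP6 share 43 bp, ND4L and ND4 share 7 bp, and ND5 and ND6 share 5 bp on opposite strands. Reads over the shared bases may have been counted for either gene, for both or for neither.

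All kits were premature New Zealand rabbits with moderate to severe haemorrhage, and all received 5 µl of an adenovirus into the cerebral ventricle. The virus carried the gene of the fluorescent protein GFP, alone in the control virus (Ad-GFP) or joined with that of the nuclear receptor PPARg (Ad-PPARg), behind the CMV promoter, which is not specific to a cell type. Controls therefore share the haemorrhage, the surgery, the virus and the fluorescent protein with the treated kits. CD11b-positive, CD45-low microglia and O4-positive OPC were sorted from the cerebral hemispheres at day 7, and each of the 4 groups of cell type and treatment holds 4 libraries.

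Totals were 6.24 to 17.6 M (mega) counts per library. In 11 libraries the 10 genes summed to 8696 to 19476 CPM, the count per 1 M counts of the library total. In the other 5 they summed to 50.9 to 107 CPM. The 5 are microglia Ad-PPARg replicates 1 and 2, microglia Ad-GFP replicate 1 and OPC Ad-PPARg replicates 1 and 4. Thresholds of 200, 500, 1000 and 5000 CPM all set the same number of libraries apart. The animals' identifiers begin with 1 of 6 prefixes, whose meaning the labels do not give. All libraries of 3 prefixes had the high sums and all libraries of the other 3 the low sums. Each side held both cell types, but 1 of the low prefixes, K193, has only 1 library, of microglia. The cell types and treatments are compared here over the 11 libraries, 5 of microglia and 6 of OPC, and the 5 others are described by themselves. The 11 were selected by the level of these same genes, which bears on every level given for them. Among the 11, Ad-PPARg libraries come from 1 prefix and Ad-GFP libraries from 2 others, so treatment and prefix cannot be told apart. The cell types are present in all 3 of these prefixes, and 5 animals gave both.

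Levels were compared between genes per kb of gene length. In OPC, ATP8 was highest, at 5714 ± 747 CPM per kb (SD, n = 6), followed by ATP6 at 4117 ± 478, COX2 at 3685 ± 503, CYTB at 2586 ± 358 and COX3 at 2316 ± 264. ND6 followed at 1649 ± 191 CPM per kb, ND5 at 1093 ± 121, ND4 at 941 ± 123, ND4L at 694 ± 102 and ND3 at 564 ± 84.5. Each neighbouring pair in this order kept its order in 6 of 6 OPC libraries. The ranges of ATP8 and ATP6, of COX3 and ND6, and of ND6 and ND5 did not overlap, while those of the other neighbouring pairs did.

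In microglia the order was the same but for 2 exchanges. ATP8 stood at 5059 ± 1999 CPM per kb (SD, n = 5), ATP6 at 3755 ± 1758 and COX2 at 3648 ± 1795. COX3 (1968 ± 520 CPM per kb) lay above CYTB (1809 ± 460), and ND4 (774 ± 187) above ND5 (677 ± 121), each in 5 of 5 libraries, where OPC had the opposite order in 6 of 6. ND6 stood at 1123 ± 219 CPM per kb. ND4L (588 ± 104) and ND3 (580 ± 200) were in this order in 3 of 5 libraries and did not differ beyond their spread. Ranges of all neighbouring pairs overlapped in microglia, where the libraries were more spread. The short ATP8 shares part of its length with ATP6, and the 2 genes of 1 mRNA, ATP8 with ATP6 and ND4L with ND4, stood at different levels per kb in each cell type.

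**Figure D1:**
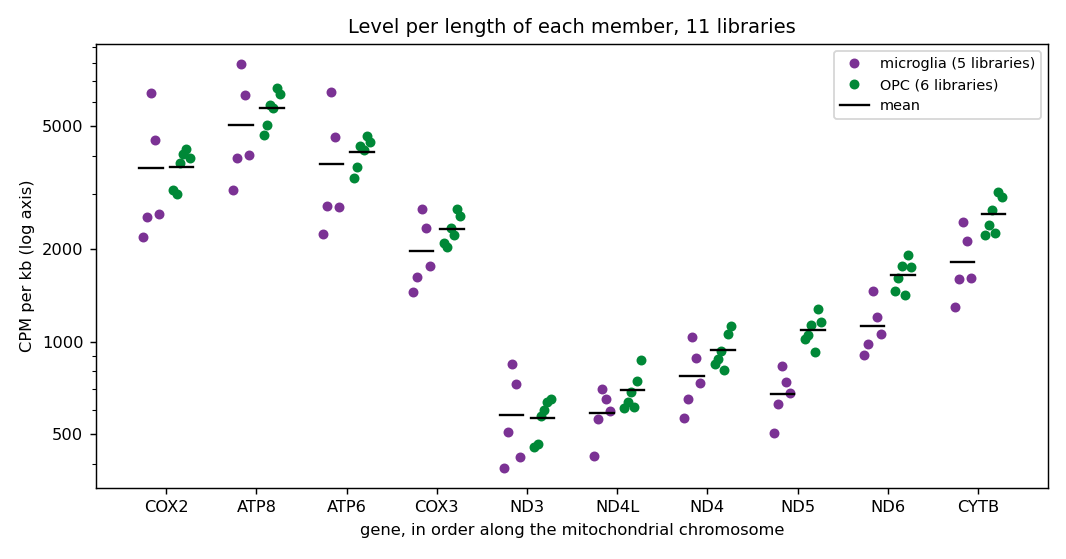
Level of each of the 10 genes in CPM of the library total per kb of gene length (log axis), in the order of the genes along the chromosome. Points are libraries, 5 of microglia and 6 of OPC, and black lines are means. ATP8, ATP6 and COX2 are highest in both cell types, ND3 and ND4L lowest, and ND5 is the only gene in which the cell types do not overlap.

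The first comparison asks how the 10 genes differ between the sorted cell types. With TMM scaling, which sets the bulk of genes equal between libraries, 4 of the 10 genes had lower levels in OPC than in microglia: COX2, COX3, ND3 and ND4L. None was higher. Over all 15274 genes tested, 35.1% were called lower and 33.8% higher in OPC (edgeR, adjusted p under 0.05; 68.9% in either direction), so that 4 of 10 lower lies near the background. In these sorted bulk samples, less RNA per cell and fewer cells of a kind within a sort cannot be told apart. In this comparison 9 of the 10 genes had a negative log2 difference, and the median over the 10 was -0.38, against 0.02 over all genes tested. The 5 mitochondrial genes of at least 200 bp that lie before COX2 were all negative, with a median of -0.64, and 3 of them were called lower. Lower levels in OPC with this scaling were thus not limited to the 10 genes.

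Among the genes from COX2 to CYTB, the largest difference with TMM scaling was in ND3. Its level in the microglia libraries was 135, 177, 294, 253 and 147 CPM of the raw total, and in OPC the lowest was 158, the median 204 and the highest 225 CPM. The ranges overlapped, with microglia Ad-GFP replicates 2 and 3 highest of all 11. The TMM-scaled log2 difference was -0.69 (SE 0.19, edgeR adjusted p = 0.00609). ND3 was called lower in 11 of 11 TMM-scaled fits that left out 1 library. It was not called with raw totals (log2 difference -0.042, edgeR adjusted p = 0.828) or with upper-quartile scaling (-0.41, edgeR adjusted p = 0.0588).

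ND4L, the complex I gene next to ND3, stood at 127, 167, 208, 194 and 177 CPM in microglia. In OPC its lowest level was 181, its median 196.8 and its highest 259 CPM. The raw levels overlapped, and the highest was in OPC Ad-GFP replicate 4. The TMM-scaled log2 difference was -0.39 (SE 0.13, edgeR adjusted p = 0.0190), and it was called in 8 of the 11 fits that left out 1 library.

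COX2 was the most variable of the 10 in microglia, at 1499, 1731, 4384, 3091 and 1770 CPM. In OPC it ranged from 2067 over a median of 2642 to 2876 CPM, inside the microglial range. The TMM-scaled log2 difference was -0.55 (SE 0.21, edgeR adjusted p = 0.0401), called in 2 of 11 fits without 1 library. COX3, the other complex IV gene, stood at 1139, 1267, 2103, 1831 and 1375 CPM in microglia and at 1585 to 2105 CPM (median 1782) in OPC. Its log2 difference was -0.38 (SE 0.15, edgeR adjusted p = 0.0371), called in 3 of 11 such fits. In both genes the microglial libraries of high and low level were the same ones: Ad-GFP replicates 2 and 3 were high.

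The other 6 genes did not pass the threshold. ATP8 had a log2 difference of -0.41 (SE 0.19, edgeR adjusted p = 0.0709) and ATP6 of -0.43 (SE 0.21, adjusted p = 0.0959). For ND4 it was -0.32 (SE 0.14, adjusted p = 0.0717). ND5 had 919, 1138, 1506, 1337 and 1233 CPM of the raw total in microglia and 1678 to 2306 CPM (median 1978) in OPC. Of the genes from COX2 to CYTB it was the only gene whose raw levels did not overlap, OPC being higher. The share of all genes tested that lie apart in this way was not counted. With raw totals 52.1% of all genes tested were called higher in OPC (edgeR, adjusted p under 0.05). With TMM scaling the levels of ND5 overlapped, and its log2 difference was 0.08 (SE 0.13, adjusted p = 0.596), the only positive value. For ND6 it was -0.06 (SE 0.13, adjusted p = 0.703) and for CYTB -0.10 (SE 0.16, adjusted p = 0.592). With TMM scaling the 3 genes nearest to 0 were thus the last 3 in chromosome order. With raw totals the same 3 were the farthest from 0.

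The direction of these differences depends on the scaling. TMM factors were 0.720 to 0.870 in microglia and 1.19 to 1.27 in OPC, without overlap. With raw totals 0 of the 10 genes were lower and 4 were higher in OPC: ND4 (log2 difference 0.33, edgeR adjusted p = 0.0338), ND5 (0.72, adjusted p = 0.000134), ND6 (0.58, adjusted p = 0.000838) and CYTB (0.54, adjusted p = 0.00412). With raw totals 52.1% of all genes tested were called higher and 21.2% lower, so that 4 of 10 higher and 0 of 10 lower are both under the background. Raw totals also moved the median of all genes to 0.65 and the share of higher among all calls from 49.0% to 71.0%. Upper-quartile scaling moved the median to 0.30 and that share to 59.3%, with ND5 the only member called, higher by 0.36 (edgeR adjusted p = 0.0195), where 41.6% of all genes were called higher. The median of the 10 genes lay 0.39 to 0.40 log2 units below the median gene under all 5 scalings. Of the 10, 9 lay below the median gene and ND5 above it. A change of scaling moves all genes by nearly the same amount. This closeness therefore follows from taking values relative to the median and does not test the difference.

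**Figure D2:**
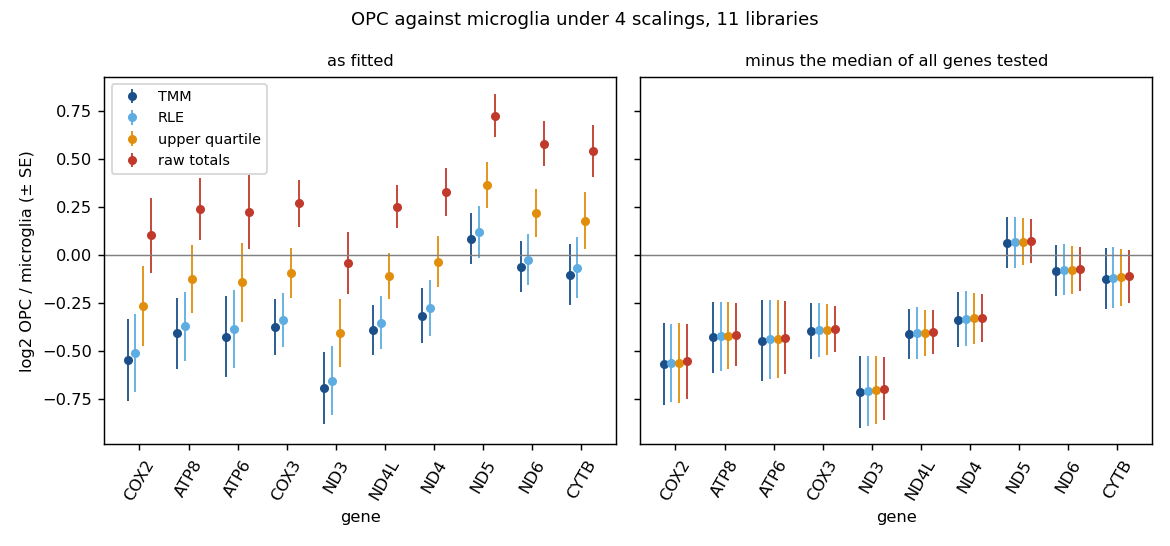
Log2 difference between OPC and microglia (± SE) for each of the 10 genes over 11 libraries under 4 scalings, as fitted (left) and after subtracting the median of all genes tested (right). On the left the points shift upward from TMM to raw totals for every gene. On the right the scalings fall together, because subtracting the median largely removes the scaling, with ND3 lowest and ND5 highest.

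The animals that gave both cell types, and the treatments, did not give the same number of calls. With the animal as a block over the 5 animals, ND3 alone was called lower in OPC (log2 difference -0.57, edgeR adjusted p = 0.0231). In that fit 35.7% of all genes were called lower and 74.6% in either direction, so 1 of 10 lies under the background. In the Ad-GFP libraries 7 of the 10 genes were lower in OPC, where 32% of all genes were (30.7% higher, 62.8% in either direction): COX2, ATP8, ATP6, COX3, ND3, ND4L and ND4. In the Ad-PPARg libraries 0 of 10 were called, where 57.3% of all genes were called in either direction (27.5% higher, 29.8% lower), and 7 of 10 had a negative value. The difference between these is the difference of the treatment effects, for which 0 of the 10 genes passed. Without microglia Ad-GFP replicate 4, the shallowest of the microglia libraries used, at 6.64 M counts, 7 of the 10 genes were called lower in OPC, where 36.8% of all genes were (72.3% in either direction).

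A scale-free view is the share that the 10 genes took of all mitochondrial counts. It was 47.9 to 48.8% in the 5 microglia libraries and 52.5 to 54.9% in the 6 OPC libraries, without overlap. Per count of the gene just before them (5354 to 6895, COX1 in the mammalian order, another core subunit of complex IV), the 10 genes had 1.23 ± 0.03 counts in microglia (SD, n = 5) and 1.57 ± 0.07 in OPC (n = 6). These ranges, 1.19 to 1.26 and 1.44 to 1.65, did not overlap either. Both measures were looked at after the levels had been seen and were not tested.

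Ratios between 2 genes of the same library do not depend on its total. Of 9 ratios compared between the cell types, those of ND5 to ND4 and of ND6 to ND5 passed a two-sided exact permutation test with Benjamini-Hochberg adjustment over the 9. Both contain ND5, the last and longest of the heavy-strand complex I genes. Ratios of ND6 and of CYTB to ND4 were not among the 9 and were not tested. As mean shares of the counts of the 10 genes, ND4 held 8.45% in microglia and 8.22% in OPC. ND5 held 9.88% and 12.6%, ND6 4.73% and 5.49%, and CYTB 16.3% and 18.6%. On these means ND6 and CYTB were also higher in OPC relative to ND4, so this was not particular to ND5. ND5 was high in OPC relative to ND4 before it, and relative to ND6 opposite it.

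The ratio of ND5 to ND4, in counts per kb, was 0.894 and 0.964 in the microglia Ad-PPARg libraries and 0.804, 0.833 and 0.930 in the microglia Ad-GFP libraries. In OPC it was 1.20 in both Ad-PPARg libraries and 1.22, 1.14, 1.20 and 1.03 after Ad-GFP. Every OPC library was above every microglia library, and all OPC values lay above 1 while all microglia values lay below it. The means were 1.17 ± 0.07 in OPC (SD, n = 6) and 0.885 ± 0.067 in microglia (n = 5), a log2 difference of 0.40 (SE 0.06, exact permutation p = 0.00433, adjusted p = 0.0390). ND5 to ND4 was higher in OPC in 5 of 5 animals that gave both cell types, and the cell types did not overlap within any of the 3 prefixes.

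The ratio of ND6 to ND5 went the other way by a smaller amount. It was 1.79 and 1.56 in microglia after Ad-PPARg and 1.76, 1.63 and 1.55 after Ad-GFP. In OPC it ranged from 1.43 to 1.56, just into the microglial range. The means were 1.51 ± 0.04 in OPC (SD, n = 6) and 1.66 ± 0.11 in microglia (n = 5), a log2 difference of -0.14 (SE 0.05, exact permutation p = 0.00866, adjusted p = 0.0390). It was lower in OPC in 5 of 5 animals, and within each of the 3 prefixes every OPC library lay below every microglia library. Paired by animal, the smallest p that 5 animals allow is 0.0625, so no ratio could pass: the paired log2 differences were 0.39 ± 0.17 for ND5 to ND4 and -0.14 ± 0.12 for ND6 to ND5 (SD, n = 5, exact sign-flip p = 0.0625 each, adjusted p = 0.281).

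Among the other 7 ratios, ND3 to COX3 was 0.243 ± 0.018 in OPC (SD, n = 6) and 0.291 ± 0.034 in microglia (n = 5), a log2 difference of -0.25 (SE 0.09, exact permutation p = 0.0303, adjusted p = 0.0909). CYTB to ND5 was 2.36 ± 0.13 and 2.65 ± 0.24, a difference of -0.16 (SE 0.07, exact permutation p = 0.0563, adjusted p = 0.127). The overlapping pairs differed by less than the spread between libraries. ATP8 to ATP6 was 1.39 ± 0.03 in OPC (n = 6) and 1.38 ± 0.09 in microglia (n = 5), a log2 difference of 0.01 (SE 0.05, exact permutation p = 0.835). ND4L to ND4 was 0.737 ± 0.027 and 0.769 ± 0.072 (log2 difference -0.06, SE 0.06, exact permutation p = 0.368). COX2 to COX3 (log2 difference -0.14, SE 0.14), ATP6 to COX3 (-0.03, SE 0.13) and ND6 to CYTB (0.03, SE 0.06) did not pass.

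**Figure D3:**
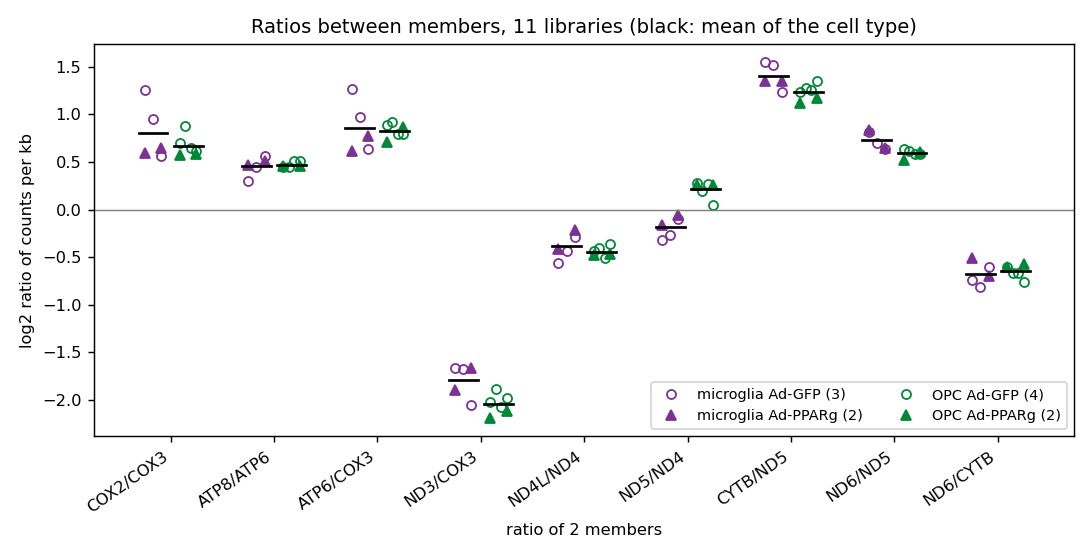
Log2 ratio of counts per kb for 9 pairs of the 10 genes in 11 libraries, with open circles for Ad-GFP, filled triangles for Ad-PPARg and black lines for the mean of a cell type. The ratio of ND5 to ND4 is above 0 in all 6 OPC libraries and below 0 in all 5 microglia libraries, while the other ratios overlap.

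ND6, the light-strand gene, had 0.0410 to 0.0580 counts per count of the 9 heavy-strand genes in microglia, and 0.0520 to 0.0631 in OPC. Its level was 477, 516, 768, 631 and 555 CPM of the raw total in microglia. In OPC the lowest was 743, the median 879 and the highest 1005 CPM. OPC levels lay above microglia in 5 of 5 animals on raw totals and in 3 of 5 with TMM scaling. Whether counting used strand is not given in the sources used here, and without strand, reads of ND6 and of RNA from the opposite strand cannot be told apart.

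The second question of the study is what PPARg overexpression changes in each cell type. In microglia all 10 genes had lower fitted levels after Ad-PPARg, with a median log2 difference of -0.54 against 0.00 over all genes tested, but 0 of 10 passed the threshold. The 5 mitochondrial genes of at least 200 bp before COX2 were also all lower, with a median of -0.64, and 0 of them passed. The lower fitted levels were thus not limited to the 10 genes. Over all genes 0.917% were called, 0.34% lower and 0.576% higher. For COX2 the 2 Ad-PPARg libraries had 1499 and 1731 CPM of the raw total and the 3 Ad-GFP libraries 4384, 3091 and 1770, a log2 difference of -0.94 (SE 0.32, edgeR adjusted p = 0.217). ATP6 had 1519 and 1876 against 4389, 3127 and 1854 CPM, a log2 difference of -0.88 (SE 0.32, adjusted p = 0.234). CYTB had 1469 and 1819 against 2779, 2409 and 1828 CPM (log2 difference -0.51, SE 0.24, adjusted p = 0.354). In all 3 genes Ad-GFP replicate 4 lay close to the Ad-PPARg libraries, and replicates 2 and 3, which share a prefix, lay high. On raw totals all Ad-GFP libraries lay above the Ad-PPARg libraries in each gene but ATP6 and ND3. With TMM scaling the treatments overlapped in all 10 genes. How many of all genes tested lie apart in this way was not counted.

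The other 7 genes had log2 differences between -0.79 for ATP8 and -0.39 for ND6 in microglia, with adjusted p from 0.225 to 0.392. At an unadjusted p under 0.05 there were 5 of 10 genes, against 14.6% of all genes tested, and DESeq2 called 0 of 10, against 3.65% of all genes. Without Ad-GFP replicate 4, edgeR called 6 genes lower after Ad-PPARg: COX2, ATP8, ATP6, COX3, ND3 and ND4. In that fit 2.46% of all genes were called lower. The 2 Ad-GFP libraries left then share 1 prefix, and the number of genes called overall rose from 140 to 759.

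In OPC all 10 genes likewise had lower fitted levels after Ad-PPARg, with a median log2 difference of -0.29 against 0.02 over all genes tested. The 5 mitochondrial genes of at least 200 bp before COX2 were again all lower, with a median of -0.36, and 0 of them passed. The background was 0.0524% of genes called in either direction, 0.0131% higher and 0.0393% lower, and 0 of the 10 were among them. ND3 had the largest value of the 10. It had 158 and 162 CPM of the raw total after Ad-PPARg against 199, 208, 222 and 225 after Ad-GFP, a log2 difference of -0.46 (SE 0.26, edgeR adjusted p = 0.801). COX2 had 2120 and 2067 against 2596, 2779, 2876 and 2688 CPM (log2 difference -0.43, SE 0.30), which did not pass. In both genes the Ad-GFP libraries lay above the Ad-PPARg libraries, as they did for ATP8, ATP6 and COX3. The treatments overlapped in ND4L, ND4, ND5, ND6 and CYTB. How many of all genes tested lie apart in this way was again not counted. ND5 had the smallest value, -0.16 (SE 0.18, adjusted p = 0.967). At an unadjusted p under 0.05 there were 0 of 10 genes, against 7.40% of all genes tested, and DESeq2 also called 0, against 1.40%.

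The treatment effects in the 2 cell types were compared directly in the same fit. The difference of effects, OPC minus microglia, was positive for all 10 genes, from 0.12 for ND3 to 0.53 for ATP6, and 0 of 10 passed (edgeR adjusted p 0.793 to 0.960), where 0.0262% of all genes were called (0.0131% positive and 0.0131% negative). None of the 10 had an unadjusted p under 0.05 in it, against 8.19% of all genes tested. The ratios within the block were set side by side by treatment, since 2 against 3 or 4 libraries cannot reach a p below 0.2 or 0.133. In microglia the treatments overlapped in 9 of 9 ratios. In OPC they overlapped in 6, and Ad-PPARg lay below Ad-GFP in 3. These were COX2 to COX3 (1.49 and 1.49 against 1.54 to 1.84), ND3 to COX3 (0.218 and 0.231 against 0.238 to 0.271) and CYTB to ND5 (2.18 and 2.26 against 2.36 to 2.55).

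In the 5 libraries set apart, the 10 genes held 0.353 to 0.669% of all mitochondrial counts. The libraries were chosen by the sum of these genes, so the low levels are a description. COX2 had 49 to 149 counts (3.57 to 10.7 CPM), ATP6 60 to 156 counts (5.32 to 10.9 CPM) and CYTB 55 to 109 counts (4.46 to 8.81 CPM). For each of these the lowest of the 11 other libraries had 139 to 167 times the highest of the 5. ND4L was lowest, with 0, 7, 6, 12 and 10 counts. In microglia Ad-PPARg replicate 1 its count was 0 of 6242342, which allows up to 3 counts, or 0.481 CPM. Such intervals cover counting error only.

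ND6 stood apart from the other 9 genes in these libraries. Its counts were 208 and 364 in microglia Ad-PPARg replicates 1 and 2, 649 in microglia Ad-GFP replicate 1, and 753 and 508 in OPC Ad-PPARg replicates 1 and 4. Its levels were thus 24.5 to 52.7 CPM against 477 to 1005 CPM in the other 11, where the lowest was 9.04 times the highest of the 5. For ND3 that factor was 29.3, and for the remaining 8 genes it was 139 to 219. ND6 held 38.8 to 61.8% of the counts of the 10 genes in the 5 libraries and 3.94 to 5.93% in the other 11. Per count of the 9 heavy-strand genes it had 0.634 to 1.61 counts there, against 0.0410 to 0.0631.

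**Figure D4:**
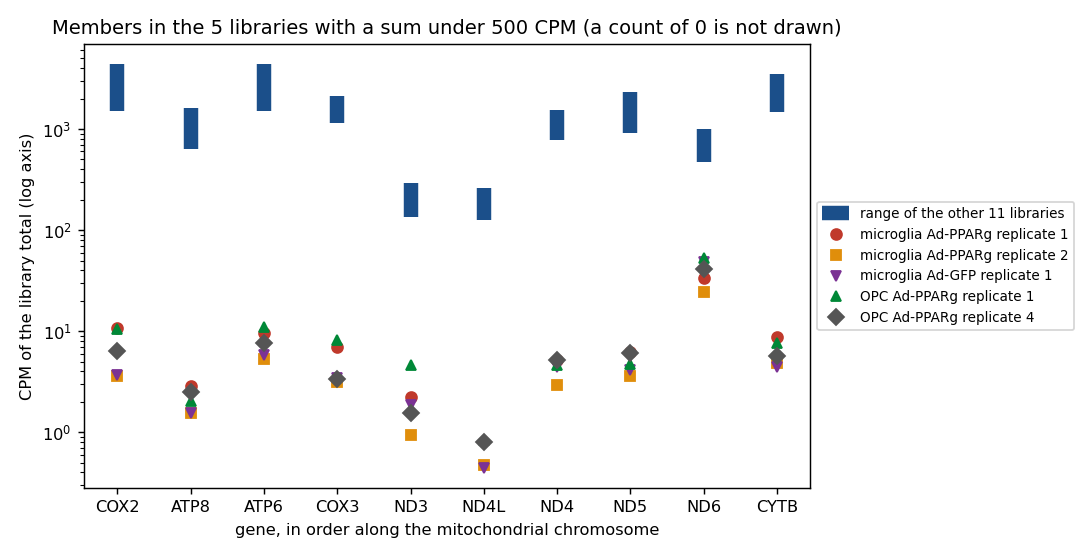
Level of each of the 10 genes in CPM of the library total (log axis) in the 5 libraries with low sums (points) and the range of the other 11 (bars). All points lie below the bars, and ND6, at 24.5 to 52.7 CPM, lies nearest to its bar. ND4L had a count of 0 in microglia Ad-PPARg replicate 1, which is not drawn.

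Other genes of the same chromosome differed in whether they shared this. The 5 long genes that start before position 7000 were not near 0 in the 5 libraries. The gene at 5354 to 6895, in the place of COX1, had 7079 to 17492 CPM there and 7313 to 15482 CPM in the other 11. The gene at 2749 to 3703, in the place of ND1, had 738 to 1934 against 728 to 1656 CPM. The gene at 3920 to 4963, in the place of ND2, had 505 to 1211 against 555 to 1241 CPM. The 2 genes in the places of the ribosomal RNAs had 165 to 4563 and 431 to 7520 CPM in the 5 libraries, against 212 to 785 and 323 to 2203 CPM. All 5 thus overlapped between the library sets.

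The genes under 200 bp, most in the size range of tRNAs, were mixed. All 5 libraries lay below all 11 others in 5 of the 7 inside the block, in 5 of the 13 before it and in 1 of the 2 after it. This count was made after the levels had been seen. How many of all genes separate the library sets in this way was not counted, so there is no background for it. The minus-strand gene at 14104 to 14171, between ND6 and CYTB, had 0 counts in all 5 and 29 to 138 in the 11. The minus-strand gene at 15380 to 15445, beyond CYTB, had at most 1 count in the 5 and 50 to 267 in the 11. Before the block, the minus-strand gene at 5107 to 5179 had 5 to 21 against 114 to 1445 counts, and the one at 5040 to 5106 had at most 2 against 46 to 317. The gene at 3771 to 3842 did not follow them, with 4 to 18 counts in the 5 and 2 to 19 in the 11. Among mitochondrial genes, low levels in the 5 libraries were thus seen beyond the 10 genes. Several of the short genes had too few counts in any library to be read.

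Among 14673 genes on other chromosomes and scaffolds, those whose pattern was most like or most opposite to the summed level of the 10 genes were found by Pearson correlation of log2 CPM over all 16 libraries, centred on each cell type. These r are descriptions, and the points share libraries and the step between 5 and 11. The 2 most opposite lie on 1 unplaced scaffold, AAGW02081404, on its minus strand. ENSOCUG00000025982 (24130 to 24426; r = -0.99) had 259 to 535 CPM in the 5 libraries and 1.66 to 3.81 CPM in the other 11. ENSOCUG00000026762 (27532 to 27689; r = -0.98) had 1135 to 2716 CPM in the 5 and 3.72 to 9.83 CPM in the 11. They were the only 2 genes with r under -0.9, and their library sets did not overlap.

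The first of these genes is 297 bp long, the length of ND4L, as are 32 of the 23632 genes outside the mitochondrial chromosome. The other gene of the scaffold (6590 to 6886, also 297 bp) had 16 to 35 counts in the 5 libraries and 2 to 20 in the 11. The lengths and that gene were looked up after the levels had been seen. The scaffold genes' sequences were not analysed here, and how multi-mapped reads were counted is not given in the sources used here. Their part in the low counts of the 10 genes was not tested.

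**Figure D5:**
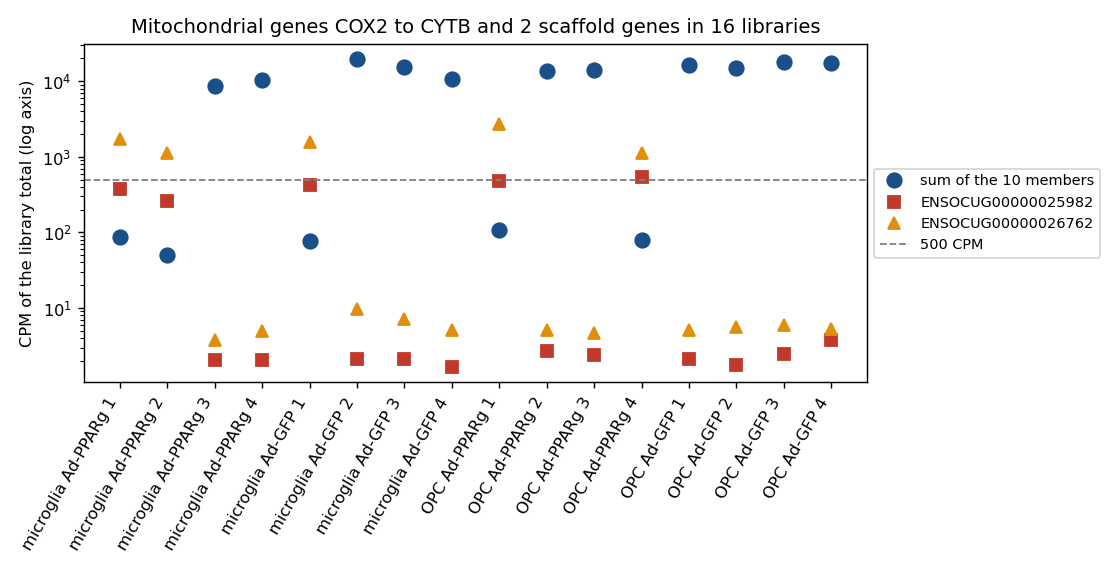
Summed level of the 10 genes and levels of the 2 scaffold genes in all 16 libraries, in CPM of the library total (log axis), with the 500 CPM line that sets 5 libraries apart. In these 5 the sum is 50.9 to 107 CPM and the scaffold genes are at 259 CPM or more, while in the other 11 the scaffold genes are at 9.83 CPM or less.

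The genes most like the 10 over the 16 libraries were ENSOCUG00000025949 on chromosome X (57169125 to 57169999) and ENSOCUG00000024894 on scaffold GL018743 (1500884 to 1501756), both with r = 0.91. The first had 1.05 to 1.63 CPM in the 5 libraries and 1.88 to 25.5 CPM in the other 11. The second had 0 to 0.320 CPM and 0.222 to 4.52 CPM, which overlap. Over the 11 libraries alone, among 15247 genes, 35 had r over 0.9 and 52 under -0.9. The highest were ENSOCUG00000026762, the scaffold gene above, at r = 0.96, and ENSOCUG00000012375 on chromosome 2 (62853844 to 62877962), at r = 0.96. The lowest were ENSOCUG00000016328 on chromosome 11 (1089237 to 1112864) and ENSOCUG00000014355 on chromosome 16 (65320846 to 65344338), at -0.98 and -0.97. ENSOCUG00000026762 thus went against the 10 genes over all 16 libraries and with them within the 11.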

How the data were processed

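RNA-seq counts were read from 1 file per library for 16 libraries. The authors deposited raw counts, and the file headers add an identifier, positions, strand and length for each gene. Named in the submitters' processing notes are Subread 1.5.2, STAR 2.5.2b and bcl2fastq 2.17, with no role. The genome build, annotation release, strand setting and treatment of multi-mapped reads were not given in the sources used here. Coordinates are as in the files. The reference table given, for rabbit, holds 38822 genes, and 0 of the files' identifiers matched it, so planned lists of nuclear respiratory genes, mitochondrial RNA factors and cell type markers could not be used. No sequence was available to print.

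The 10 genes, the 500 CPM threshold and the tests were chosen with earlier results of these data known. Level values are CPM of raw totals unless TMM is named. The 11 libraries were fitted together with 4 group means in edgeR 4.0.16 under R 4.3.3 (quasi-likelihood test, TMM, robust fit, default filter on low counts), adjusted by Benjamini-Hochberg over all genes tested at 0.05. The SE is that of the log2 difference. All 10 genes passed the filter. DESeq2 1.42.0 was an alternative. Ratios were compared by two-sided exact permutation over libraries (SciPy 1.17.1, Python 3.11.15) out of 462 regroupings. The 10 genes are all named; other genes were named as the 2 highest and 2 lowest correlations with their sum (prior count 2), and mitochondrial genes by class, with single short genes chosen after their values were seen. Correlations under another filter on low counts were looked at and are not reported.

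The labels' animal identifiers pair the cell types in 5 animals. Their deviations from group means correlated at -0.10 to 0.29 (median 0.25), against a median of -0.16 between animals of 1 treatment. Deviations within a group cancel out, so positive r within animals brings negative r between animals. The median between animals is therefore no independent baseline. Within groups, chi-square per gene was 6.75 to 234 over 24 pairs of libraries, so none was counted as a repeat. Each library of a group is from a different animal, but kits with 1 prefix may not be independent. On simulated counts for the fit of OPC against microglia (14438 genes), 79% of genes changed 2-fold and 99% changed 4-fold were recovered, with 10 false calls. For treatment in microglia (14727 genes) these were 53% and 89% with 9 false calls, and in OPC (14768 genes) 54% and 94% with 10. Each simulation changed only a small set of the more expressed genes and left the rest equal between the groups compared. Between the real cell types 68.9% of genes were called, so the shares for OPC against microglia do not describe that comparison. Totals of 6.24 to 17.6 M counts limit single levels little in the 11 libraries, while counts in the other 5 are mostly under 160.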

Additional observations from a re-analysis of the deposited data

Results flagged for a closer look

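In the group of 4 microglia Ad-GFP libraries, replicate 1 lay far below the other 3 for all 10 genes and for their sum. The gap to the next library, as a share of the whole range of log2 CPM, was 0.872 for COX2, 0.902 for ATP8, 0.870 for ATP6, 0.934 for COX3, 0.863 for ND3, 0.974 for ND4L, 0.940 for ND4, 0.966 for ND5, 0.883 for ND6, 0.935 for CYTB and 0.893 for the sum. Each is above the 95% critical value of Dixon's test for 4 samples. This library had already been set apart by the sum of the same 10 genes, 78.1 CPM against 10769 to 19476 CPM in the other 3, so these values restate that selection and are no further evidence. The 11 values come from 1 library and are not independent, and chance puts about 1 in 20 groups past this value. The log2 scale was chosen after the levels had been seen: on linear CPM 1 of 44 groups of values passed, ND4L in the same library, at 0.853. In the 2 Ad-PPARg groups 2 libraries each are low, a pattern the test for a single distant sample does not pick out. No treatment effect on the 10 genes differed between the cell types past the threshold.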

How the results depend on the processing

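All 5 libraries stayed apart at each threshold and with TMM-scaled totals. The number of the 10 genes called between the cell types was 4 with TMM, where 68.9% of all genes were called in either direction. It was 1 with upper-quartile scaling (70.2% of all genes), 1 with scaling that left out mitochondrial genes (68.7%) and 0 over all 16 libraries (68.5%). With the animal as replicate block it was 1 (74.6%), in Ad-GFP libraries 7 (62.8%) and in Ad-PPARg libraries 0 (57.3%). When single Ad-GFP libraries were left out it was 1 to 7 (66.2 to 72.3%), and 7 without microglia Ad-GFP replicate 4. Raw totals reversed COX2 (0.10), ATP8 (0.24), ATP6 (0.22), COX3 (0.27), ND4L (0.25), ND4 (0.33), ND6 (0.58) and CYTB (0.54). Upper-quartile scaling reversed ND6 (0.22) and CYTB (0.18), all 16 libraries ND6 (0.17) and CYTB (0.14), Ad-PPARg libraries ND6 (0.033) and CYTB (0.0052), scaling without mitochondrial genes ND6 (0.011), and Ad-GFP libraries ND5 (-0.034). Without single libraries ND5 ran from -0.012 to 0.17 and ND6 from -0.13 to 0.024. The animal as block left the other 9 genes uncalled, and it ended the call of both ratios (0 passing, smallest p 0.0625).

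Genes called by treatment in microglia, 140, became 557 with DESeq2, 0 over all 16 libraries, 57 in a fit of microglia alone, 9 with counts summed per prefix, and 25 to 759 when single libraries were left out (lowest without Ad-PPARg replicate 3 and highest with Ad-GFP replicate 4 left out), and 0 to 6 of the 10 genes were called in these. In OPC, 8 became 19 without the filter on low counts, 214 with DESeq2, 2 over all 16 libraries, 47 in OPC alone, 5 per prefix, and 1 to 18 when single libraries were left out. The cause of these shifts was not tested. The other settings called 0 of the 10 genes for treatment.

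Leaving out single libraries gave 0 to 2 ratios passing, with fewer libraries and so a larger smallest p, while ND5 to ND4 stayed positive and ND6 to ND5 negative throughout. ATP8 to ATP6 ran from -0.029 to 0.037, ATP6 to COX3 from -0.084 to 0.078 and ND6 to CYTB from -0.0088 to 0.068. No paired analysis of treatment was possible because no animal received both.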
